A study of Homo sapiens with 8 samples.

Results

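The zinc finger (ZNF) genes of chromosome 19 were followed in the human cell line G401, which derives from a renal rhabdoid tumor and lacks SMARCB1. The members were the protein-coding genes of chromosome 19 whose GENCODE symbol is ZNF followed by a number. There were 240 such genes among the 69215 genes of the files, 131 on the plus strand and 109 on the minus strand. A further 236 genes with symbols of this form lie on other chromosomes, and 1235 other protein-coding genes lie on chromosome 19.

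Total RNA was sequenced in 8 libraries from a pair of engineered G401 lines with Tet-On transgenes, which are switched on by doxycycline (Dox). The SMARCB1 line expresses SMARCB1, a shared subunit of SWI/SNF chromatin remodeling complexes, and the GFP line expresses GFP as a control. Each line was treated for 12 h with Dox at 0.1 µg/ml or with the solvent dimethylsulfoxide (DMSO). This gave 4 groups of 2 libraries, here called SMARCB1 DMSO, SMARCB1 Dox, GFP DMSO and GFP Dox. All groups share the loss of the endogenous SMARCB1 gene and the Tet-On system, and whether a line is 1 clone is not given in the sources used here. The plates of a condition were combined after harvest, and nothing in the labels ties the 2 libraries of a group to separate cultures, so p-values measure only the spread between these libraries, which may be technical.

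Most ZNF genes of chromosome 19 encode proteins with a KRAB domain followed by an array of C2H2 fingers, in which each finger folds around a zinc ion and reads a few bases of DNA. The KRAB domain binds TRIM28, which brings the histone methyltransferase SETDB1 and HP1 proteins to the bound site and silences it, and many targets are transposable elements. The genes arose by tandem duplication and stand in clusters of close relatives, several of which are themselves covered by the silencing mark H3K9me3 in many cell types.

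Gene counts per library ranged from 29632090 to 37597477, and the ZNF genes of chromosome 19 took 0.246% to 0.268% of them. The SMARCB1 gene, the check of the labels, was at 30474 and 29383 counts in SMARCB1 Dox, 10 and 21 in SMARCB1 DMSO and 0 in each GFP library. VIM, a mesenchymal marker, was at group means of 707 to 1280 CPM (counts scaled to library size with the TMM factors of edgeR), whereas EPCAM had at most 7 counts in any library, PECAM1 at most 3, PTPRC at most 2 and MYOD1 at most 1. Mitochondrially encoded genes took 27.9% and 23.9% of the counts in SMARCB1 DMSO and 18.9% to 22.9% in the other 6 libraries.

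Promoters of 5 members are shown because these genes carry the contrasts described below. ZNF69, ZNF320 and ZNF493 were each read wholly or almost wholly in 1 line, and ZNF208 and ZNF714 are relatives of 1 cluster of which the former was silent and the latter among the highest. The sequences are those of RefSeq on GRCh38.p14, 5′ to 3′ on the strand of the gene, from 250 bases before to 50 bases after the start, with CG dinucleotides in capitals.
ZNF69 (chr19:11887532-11887831, plus strand): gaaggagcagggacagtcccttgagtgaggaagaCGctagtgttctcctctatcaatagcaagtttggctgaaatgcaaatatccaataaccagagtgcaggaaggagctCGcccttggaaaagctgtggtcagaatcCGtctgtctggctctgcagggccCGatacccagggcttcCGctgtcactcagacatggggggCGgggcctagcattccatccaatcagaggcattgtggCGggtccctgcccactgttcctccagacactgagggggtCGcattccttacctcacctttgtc
ZNF320 (chr19:52897645-52897944, minus strand): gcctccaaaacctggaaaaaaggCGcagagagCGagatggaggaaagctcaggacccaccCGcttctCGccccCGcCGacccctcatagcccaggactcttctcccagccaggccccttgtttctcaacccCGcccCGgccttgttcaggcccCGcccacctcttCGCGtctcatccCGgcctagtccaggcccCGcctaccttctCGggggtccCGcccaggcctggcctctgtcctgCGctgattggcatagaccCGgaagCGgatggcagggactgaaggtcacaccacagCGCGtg
ZNF493 (chr19:21396883-21397182, plus strand): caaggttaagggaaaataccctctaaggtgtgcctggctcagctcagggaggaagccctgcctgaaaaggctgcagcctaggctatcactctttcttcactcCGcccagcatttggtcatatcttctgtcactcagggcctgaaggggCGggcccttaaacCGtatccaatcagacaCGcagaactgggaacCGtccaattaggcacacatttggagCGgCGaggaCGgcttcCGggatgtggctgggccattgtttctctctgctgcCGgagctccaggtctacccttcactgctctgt
ZNF208 (chr19:22010894-22011193, minus strand): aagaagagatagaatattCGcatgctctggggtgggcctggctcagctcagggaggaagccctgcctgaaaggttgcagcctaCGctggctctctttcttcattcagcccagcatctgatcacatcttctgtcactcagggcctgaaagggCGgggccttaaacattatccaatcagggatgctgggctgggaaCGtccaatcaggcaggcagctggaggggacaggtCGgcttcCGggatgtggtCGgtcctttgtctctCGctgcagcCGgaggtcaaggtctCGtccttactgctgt
ZNF714 (chr19:21081953-21082252, plus strand): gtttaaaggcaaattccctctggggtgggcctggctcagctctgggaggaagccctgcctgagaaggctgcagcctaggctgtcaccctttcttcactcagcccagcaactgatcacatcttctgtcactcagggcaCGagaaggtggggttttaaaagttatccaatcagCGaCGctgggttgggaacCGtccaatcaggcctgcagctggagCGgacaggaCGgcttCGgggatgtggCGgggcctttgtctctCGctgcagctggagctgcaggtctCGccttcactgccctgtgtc
The promoters of ZNF69, ZNF493, ZNF208 and ZNF714 held 8 to 10 CG dinucleotides each and that of ZNF320 held 20. The median was 20 over the 210 members with a RefSeq promoter, 14 over all 27305 promoters of that table and 22 over those of 15135 other protein-coding genes. In global alignments the promoter of the silent ZNF208 was identical to that of the highly expressed ZNF714 at 82.1% of aligned positions. ZNF493 shared 79.7% with ZNF208 and 80.5% with ZNF714, and every pair that included ZNF69 or ZNF320 shared 47.8% to 52.6%.

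The level of each member was first examined in every library. Only levels per kilobase of exon (RPKM) are compared between genes. By its median over the 8 libraries, 8 members were at 10 RPKM or more, 99 between 1 and 10, 80 between 0.1 and 1, and 53 below 0.1. The 10 members with most reads held 33.3% of the CPM of all 240.

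ZNF146, a protein made of fingers without a KRAB domain, was highest at a median of 25.7 RPKM (range 25.4 to 30.6). ZNF121 followed at 23.1 RPKM (range 21.0 to 27.0), and these ranges overlapped. ZNF460 was at 16.0 RPKM (range 14.7 to 17.3) and overlapped neither of them. ZNF714, ZNF260, ZNF114, ZNF480 and ZNF587 stood between 11.2 and 11.5 RPKM at the median and did not separate from each other. ZNF114 had the widest range of them, 4.21 to 17.9 RPKM. The median of the 195 members that passed the expression filter was 1.17 RPKM, against 2.56 RPKM for all 15931 genes tested.

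Members with known functions outside transposon silencing were also read. ZNF473, which takes part in histone pre-mRNA processing, was at 2.68 to 3.47 RPKM. ZNF331, an imprinted gene, was at 1.33 to 1.74 RPKM, and ZNF274, which recruits SETDB1 to ZNF genes, was at 1.68 to 2.09 RPKM. ZNF91, a repressor of SVA elements, was at 2.52 to 3.38 RPKM. In the comparisons below ZNF91 was called higher in SMARCB1 DMSO than in GFP DMSO and ZNF473 lower with Dox in the SMARCB1 line, and ZNF331 and ZNF274 were not called.

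**Figure D1:**
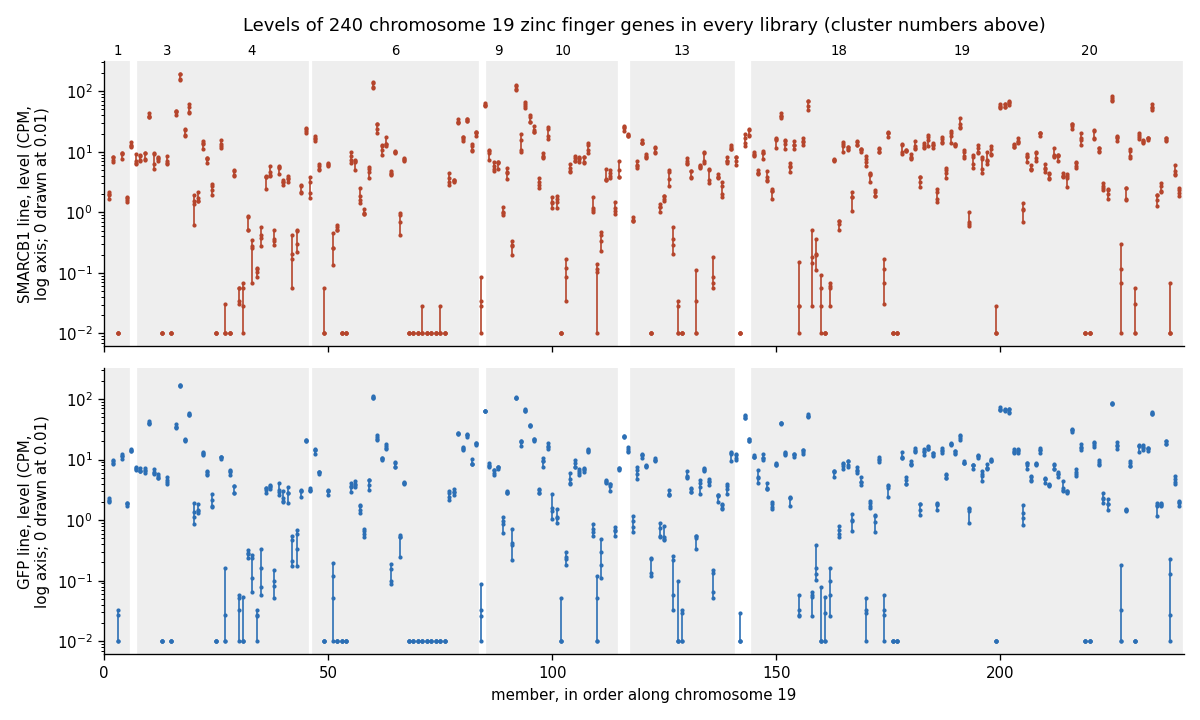
Level of each of the 240 members in CPM on a log axis, in order along chromosome 19, with the 4 libraries of the SMARCB1 line above and the 4 of the GFP line below. Points are libraries, vertical lines join the lowest and highest library, counts of 0 are drawn at 0.01 and grey bands are clusters of at least 5 members. Most members sit between 1 and 100 CPM in both lines, and the row of points at the bottom of cluster 6 is the run of 9 silent neighbours.

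Members were grouped into a cluster where neighbours lay within 500 kb of each other. This gave 20 clusters, of which 10 held at least 5 members each and 228 in all, and the other 10 held 12. The largest were cluster 20 (41 members, positions 57191500 to 58481230 on GRCh38), cluster 18 (39 members, 51571283 to 53580269) and cluster 6 (37 members, 19668796 to 24129968).

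A member was called silent when no library had more than 3 counts. This held for 31 of 240 members (12.9%), and 16 of them had 0 counts in all 8 libraries. A count of 0 allows a level of up to 0.103 CPM in a single library, which covers counting error only. The share was 30.3% over all 20015 protein-coding genes, 11.4% over the ZNF genes of other chromosomes and 27.5% over the other protein-coding genes of chromosome 19. The differences between these shares were not tested. A further 14 members had more than 3 counts in a library but did not pass the expression filter.

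Silent members were spread unevenly over the clusters. Cluster 6 held 12 of its 37 members silent, cluster 18 held 4 of 39, cluster 20 held 3 of 41 and cluster 10 held 1 of 24. In cluster 6, 9 neighbours in a row were silent, ZNF208, ZNF257, ZNF676, ZNF729, ZNF98, ZNF492, ZNF99, ZNF723 and ZNF728, between positions 21932958 and 23003176. Together they had 2 counts over the 8 libraries, 1 for ZNF729 and 1 for ZNF723. The member directly before the run, ZNF43, was read in every library, with 227, 247, 251 and 252 counts in the SMARCB1 line and 143, 156, 126 and 143 in the GFP line.

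ZNF208 encodes the longest array found here, with 36 fingers, and ZNF729 the second longest, with 34. Long arrays and a place in cluster 6 did not always go with silence, since ZNF91 in the same cluster has 31 fingers and 26.0 to 34.8 CPM. ZNF714, whose promoter is shown above beside that of ZNF208, had 103 to 140 CPM in the 8 libraries. Other silent members included ZNF536 (at most 3 counts) and ZNF541 (at most 1), which are known from neurons and germ cells. ZNF154, ZNF671, ZNF677 and ZNF665 had 0 counts in every library, and the first 3 are known for promoter methylation in carcinomas.

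Counting limits bear on some silent members. Reads that matched several places or several overlapping genes were not counted. The share of 50-base exon windows found once in the genome was 52.5% for ZNF98 and 53.4% for ZNF492, against a median of 96.0% over all members, and 90.6% of the exon bases of ZNF177 are shared with another gene on the same strand. Of the 31 silent members, 14 had less than 10% of exon bases shared with another gene and at least 90% unique windows, a restriction chosen after seeing the data.

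Several members were read in 1 line and not in the other. ZNF69 (chromosome 19, positions 11887782 to 11914329, plus strand) had 0 counts in each of the 4 SMARCB1 libraries. In the GFP line it had 219 and 216 counts with DMSO and 192 and 248 with Dox, that is 6.48, 5.63, 6.24 and 6.78 CPM. The lines were far apart, and within the GFP line the Dox and DMSO libraries overlapped. Against a floor of 3 counts pooled over the SMARCB1 group, ZNF69 was at least 125-fold higher in the GFP line among DMSO libraries and at least 154-fold higher among Dox libraries. ZNF439, directly before it on the same strand, had 0, 1, 0 and 0 counts in the SMARCB1 line and 0, 0, 5 and 1 in the GFP line. The nearest expressed members on the same strand were read in both lines. ZNF440, the expressed member before ZNF69, had 375 to 458 counts in the DMSO libraries and 344 to 435 in the Dox libraries. ZNF700, directly after ZNF69, had 88 to 164 counts in all 8. In the comparisons below, both were called higher in SMARCB1 DMSO than in GFP DMSO, opposite to ZNF69, by 0.44 and 0.60 on the log2 scale. Neither was called between the Dox groups.

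ZNF320 (positions 52860851 to 52897693, minus strand) had the opposite pattern. The SMARCB1 line had 246 and 222 counts with DMSO and 205 and 270 with Dox, against 1 and 2 and then 1 and 0 in the GFP line. The pooled ratio of the SMARCB1 to the GFP line was 181 among DMSO libraries, with an exact 95% counting interval of 61.6 to 882. Among Dox libraries it was 454, with an interval of 81.0 to 17958. ZNF69 and ZNF320 were the only members with at most 3 counts in every library of 1 line and a mean of at least 1 CPM in the other.

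Weaker members of the same kind were chosen after their values were seen. ZNF682 had 17, 20, 18 and 18 counts in the SMARCB1 line and 0 in each GFP library, at least 14.3-fold higher among DMSO and at least 11.5-fold among Dox libraries, at levels under 1 CPM. ZNF404 had 0 counts in the SMARCB1 line and 4, 9, 7 and 5 in the GFP line. ZNF234 had 1, 0, 4 and 0 counts in the SMARCB1 line against 17, 13, 17 and 20, a pooled ratio among DMSO libraries of 25.8 in favour of the GFP line (exact 95% counting interval 4.29 to 1054), and among Dox libraries of 9.68 (3.48 to 37.4). ZNF682 lies in cluster 6, and ZNF404 and ZNF234 lie in cluster 13.

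Graded differences between the lines were seen for members with reads in both lines. The GFP line had few reads of ZNF493, at 3 and 6 counts with DMSO and 3 and 7 with Dox. ZNF493 had 4.49, 4.37, 4.83 and 4.18 CPM in the SMARCB1 line, DMSO first, and 0.0888, 0.156, 0.0974 and 0.191 in the GFP line. Its log2 fold change between the DMSO groups was 5.11. ZNF493 was under the expression filter, about 0.292 CPM, in every GFP library. It was therefore tested only through the SMARCB1 line, and a large difference was bound to follow. ZNF347 had 20.5, 21.2, 17.4 and 20.7 CPM in the SMARCB1 line and 3.43, 3.78, 3.73 and 2.40 in the GFP line. The lines did not overlap for either gene.

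ZNF347 was thereby higher by 2.53 on the log2 scale between the DMSO groups, with a standard error (SE) of 0.16 (edgeR quasi-likelihood test, Benjamini-Hochberg adjusted p = 2.77e-11). ZNF114 went the other way, with 12.7 and 13.9 CPM in SMARCB1 DMSO against 47.9 and 51.8 in GFP DMSO, a log2 fold change of -1.91 (SE 0.10, edgeR adjusted p = 1.51e-12). ZNF114 encodes only 3 fingers and stands outside the large clusters. The calls of ZNF347 and ZNF114 between the DMSO groups held in every alternative that was run. Those of ZNF69, ZNF320 and ZNF493 held too, but this says little. These genes lay under the expression filter in every library of the line where they were low, so their calls could hardly be lost.

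**Figure D2:**
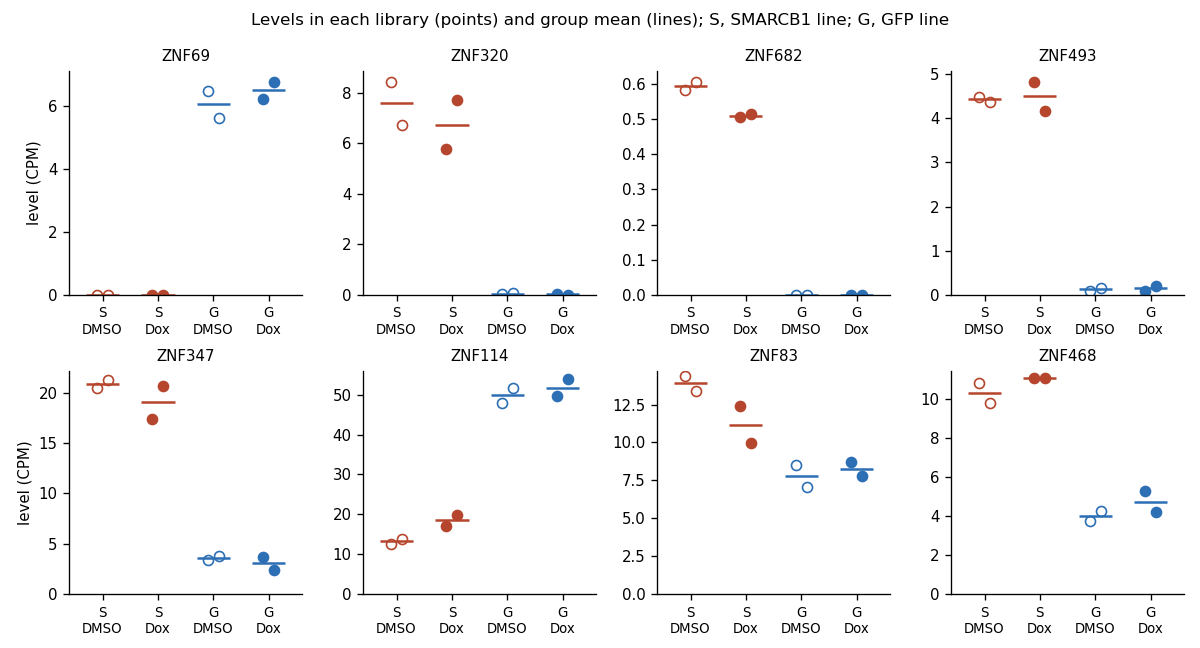
Level in CPM of 8 members in each library, by group, with S for the SMARCB1 line, G for the GFP line, open points for DMSO, filled points for Dox and horizontal lines for the mean of 2 libraries. ZNF69 lies at 0 in the SMARCB1 line, ZNF320 and ZNF682 lie at or near 0 in the GFP line, and Dox moves none of the 3 across.

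The lines were then compared without Dox over all members tested. Of 195 members tested, 53 were called higher and 7 lower in SMARCB1 DMSO than in GFP DMSO (edgeR, Benjamini-Hochberg adjusted p under 0.05), 30.8% in all. Over all 15931 genes tested 32.0% were called, 16.3% higher and 15.7% lower. The total was thus near the background, whereas the directions were not, since 88.3% of the called members were higher against 50.9% of all called genes. The median log2 fold change was 0.22 over the tested members and 0.01 over all genes, and 139 of 195 were above 0. Because 7 members passed the filter only through the SMARCB1 line and 4 only through the GFP line, a few of these differences were bound to be large.

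Related sets of genes were examined in the same way. Among the 203 tested ZNF genes of other chromosomes, 26 were called higher and 18 lower, with a median of 0.01. Among the other protein-coding genes of chromosome 19, 116 were higher and 135 lower, with a median of -0.02. Among the 44 tested protein-coding genes that lie inside the clusters without being members, 7 were higher and 5 lower, with a median of 0.02. These counts are set side by side and the differences between sets were not tested.

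Of the called members, 18 were more than 2-fold higher and 3 more than 2-fold lower. For all 60 the groups did not overlap, which nearly follows from a call on the same libraries. Over all genes tested, called or not, the share was 64.7%. Besides those given above, the largest increases among called members with a mean of at least 1 CPM in SMARCB1 DMSO were those of ZNF155 (log2 fold change 1.80), ZNF841 (1.46), ZNF468 (1.36), ZNF229 (1.32), ZNF737 (1.26), ZNF888 (1.22) and ZNF525 (1.22). ZNF296 (-0.52), ZNF738 (-0.41), ZNF584 (-0.32) and ZNF264 (-0.24) were the other named members called lower. Each of these 4 calls ended when 1 of 2 or 3 libraries was left out, at edgeR adjusted p values of 0.0832 to 0.251. Scaled to library totals, 37 members were higher and 9 lower. This scaling moved the median of all genes to -0.10 and that of the members to 0.10. Without GFP DMSO replicate 1, 37 members were called, and without GFP DMSO replicate 2 also 37. Without SMARCB1 DMSO replicate 1, the library with the highest mitochondrial share, 48 were called.

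The share called varied between clusters, and these differences were not tested. Among clusters of at least 5 members it was highest in cluster 3, where 6 of 11 tested members were higher and 0 lower. In cluster 18, 14 of 31 were higher and 0 lower, and in cluster 13 (positions 43525497 to 44500524), 8 of 19 were higher and 1 lower. Cluster 4 had 7 of 19 higher and 1 lower, and cluster 6 had 8 of 24 higher and 1 lower. Cluster 19 (55476617 to 56671783), with 15 tested, held no called member, and in cluster 20, 3 of 36 were higher and 2 lower. Runs of at least 3 neighbouring tested members called in the same direction were found 6 times, each of them higher in the SMARCB1 line. Higher calls far outnumbered lower ones, so runs of lower calls were unlikely from the start. Whether the runs exceed those of a random order of members was not tested.

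The longest run held 8 members of cluster 18 between positions 52594060 and 52962911, namely ZNF83, ZNF611, ZNF600, ZNF28, ZNF468, ZNF320, ZNF888 and ZNF816. Their summed level was 68.3, 62.8, 59.98 and 62.5 CPM in the SMARCB1 line and 32.7, 30.7, 31.2 and 31.8 in the GFP line. The DMSO sums had to separate in this direction, since each member of the run was chosen by its call between the DMSO groups. The Dox sums, which that choice did not compare, did not overlap between the lines either. None of the 8 was among the members called with Dox by edgeR. At the ends of the run, ZNF83 was higher by 0.84 on the log2 scale (SE 0.14, edgeR adjusted p = 8.80e-05) and ZNF816 by 1.03 (SE 0.31, edgeR adjusted p = 0.0136). The call of ZNF816 was lost without SMARCB1 DMSO replicate 2 (edgeR adjusted p = 0.106) and without GFP DMSO replicate 2 (edgeR adjusted p = 0.118). Directly outside the run, ZNF701 had 15 to 27 counts in the 8 libraries and ZNF160 had 300 to 421, and neither was called.

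The other runs were shorter, and the direction of their DMSO sums was likewise fixed by the choice of members. ZNF253, ZNF682, ZNF737 and ZNF626 in cluster 6 summed to 20.8 and 23.9 CPM in SMARCB1 DMSO against 11.2 and 9.82 in GFP DMSO. ZNF112, ZNF285 and ZNF229 in cluster 13 summed to 13.6 and 15.3 CPM against 6.51 and 7.35. The run from ZNF699 to ZNF121 in cluster 3 held 5 members at 267 and 264 CPM against 222 and 221, a smaller difference on a higher level. The 2 runs of 3 in cluster 4, from ZNF700 to ZNF625 and from ZNF563 to ZNF799, were low throughout, at 3.15 to 9.50 CPM in the 4 DMSO libraries. The members at their ends, ZNF700, ZNF625, ZNF563 and ZNF799, each lost the call in DESeq2 (adjusted p 0.0821 to 0.151) and when 1 of 2 to 5 libraries was left out (edgeR adjusted p 0.0513 to 0.271), so neither run of 3 held in DESeq2. ZNF625 shares 83.2% of its exon bases with another gene on the same strand. ZNF626 lost its call without GFP DMSO replicate 2 (edgeR adjusted p = 0.0545). ZNF121 was called at an edgeR adjusted p of 0.0477 and lost the call when any of 6 libraries was left out, at 0.0793 to 0.274. ZNF699 lost it without GFP DMSO replicate 1 (edgeR adjusted p = 0.100).

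The same comparison was made between the Dox libraries, which share no library with the DMSO comparison, and in which line, SMARCB1 expression and history of the line cannot be told apart. Of 195 members, 38 were called higher and 22 lower in SMARCB1 Dox than in GFP Dox by edgeR, 30.8% in all against 38.8% of all genes (19.6% higher and 19.2% lower). Of the 53 members called higher without Dox, 30 were called higher again, and of the 7 lower, 5 were called lower again. No member was called in opposite directions. The groups did not overlap for any of the 60, which again nearly follows from the call, and the share over all genes tested, called or not, was 68.2%. The 35 shared members were 58.3% of either list, against 72.3% and 59.7% for the lists of all genes. Without SMARCB1 Dox replicate 1, 37 members were called.

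In the longest run, 7 of 8 members were called higher again in the Dox libraries, all but ZNF600. The calls of ZNF83 and ZNF816, at its ends, did not hold in every alternative. ZNF83 was higher by 0.44 on the log2 scale, and by 0.27 without SMARCB1 Dox replicate 1. It lost its call in DESeq2 (adjusted p = 0.0501). ZNF816 was higher by 1.09, and by 0.73 without GFP Dox replicate 1. In cluster 6, 11 of 24 tested members were higher and 0 lower with Dox, and 23 of 24 were above 0. In cluster 10 (positions 36182276 to 37817300), 5 of 21 were higher and 0 lower without Dox, and 0 were higher and 3 lower with Dox. The median over members was 0.10 with Dox in place of 0.22 without.

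**Figure D3:**
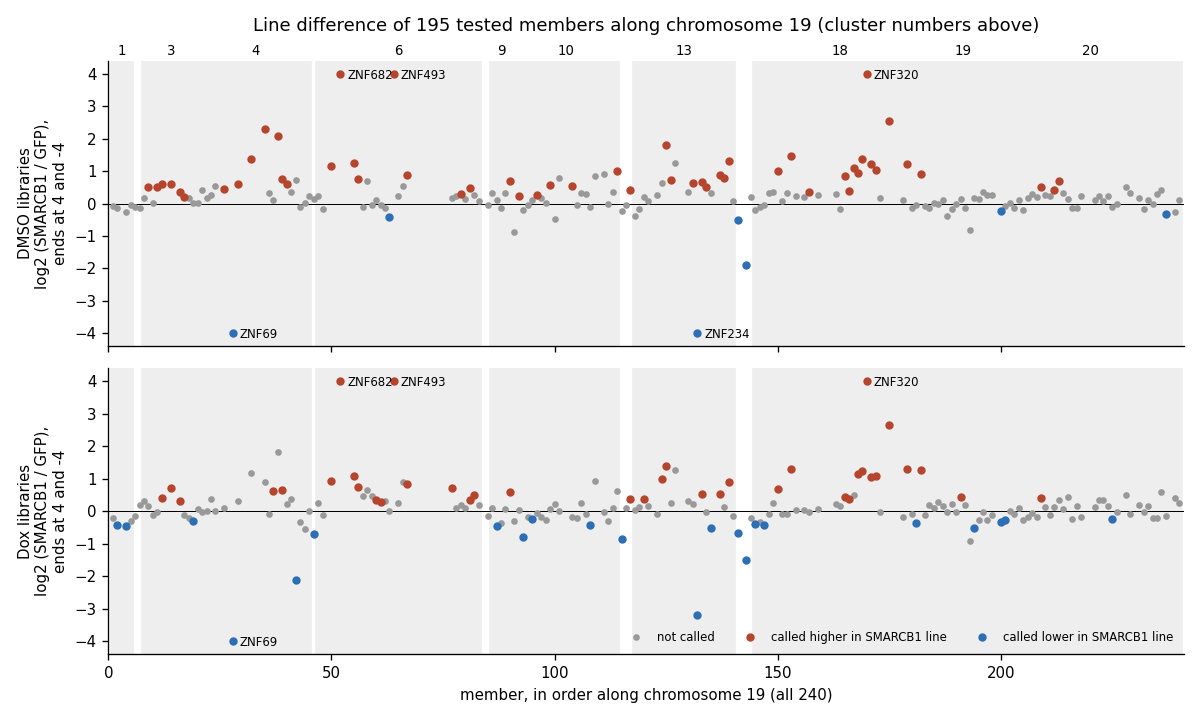
Log2 fold change of the SMARCB1 over the GFP line for the 195 tested members in order along chromosome 19, in the DMSO libraries above and in the Dox libraries below, with axes that end at 4 and -4. Red points were called higher, blue points lower and grey points not called. Red points outnumber blue ones above, 53 to 7, and cluster 18 holds the largest number of them, 14 of 31 tested members.

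Re-expression of SMARCB1 was the next contrast, of the Dox with the DMSO libraries of the SMARCB1 line. Of 195 members tested, 6 were called higher and 19 lower by edgeR, 12.8% in all, against 14.0% of all genes (8.33% higher and 5.69% lower). None of the 25 changed by more than 2-fold. For all 25 the groups did not overlap, which nearly follows from the call, and the share over all genes tested, called or not, was 51.2%. The median log2 fold change was -0.15 over the tested members and -0.004 over all genes, and 141 of 195 members were below 0. ZNF genes of other chromosomes had 9 higher and 17 lower with a median of -0.10, and other protein-coding genes of chromosome 19 had 75 higher and 21 lower with a median of 0.07. Scaled to library totals, 7 members were higher and 10 lower. This scaling also moved all genes up, to 1986 higher and 497 lower of 15931, with a median of 0.09. In bulk RNA, fewer cells that express a gene and less RNA per cell cannot be told apart.

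The decreases were small. ZNF566 had 20.03 and 15.8 CPM in SMARCB1 DMSO and 10.8 and 10.1 with Dox, whereas the GFP libraries had 20.2, 20.6, 19.7 and 16.6. Its log2 fold change with Dox was -0.78 (SE 0.13, edgeR adjusted p = 0.000225), the smallest p among members. ZNF699 went from 9.40 and 9.28 CPM to 6.21 and 5.29, a log2 fold change of -0.70 (SE 0.15, edgeR adjusted p = 0.00241). ZNF471 went from 8.23 and 7.70 CPM to 5.25 and 4.49, a log2 fold change of -0.71 (SE 0.16, edgeR adjusted p = 0.00404). The 2 groups did not overlap for any of these 3 genes, and their calls held in every alternative run.

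Among called members ZNF333 had the largest decrease, from 3.19 and 3.85 CPM to 2.08 and 1.75 (log2 fold change -0.88, SE 0.21, edgeR adjusted p = 0.0073). Its edgeR adjusted p was 0.0639 without SMARCB1 Dox replicate 2 and 0.0708 without SMARCB1 DMSO replicate 2. ZNF235, ZNF546, ZNF230, ZNF583, ZNF850 and ZNF227 were lower by 0.52 to 0.65 on the log2 scale, and each of the 6 lost its call when 1 of up to 3 libraries was left out, at edgeR adjusted p values of 0.0526 to 0.293. Among the most abundant members, ZNF121 fell by 0.30 (edgeR adjusted p = 0.00959, and 0.0701 without SMARCB1 Dox replicate 2). ZNF480 fell by 0.37, and its edgeR adjusted p was 0.101 without SMARCB1 Dox replicate 1. Of the 18 named members called with Dox, 3 kept their call in every alternative.

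Of the 19 members that were lower with Dox, 6 had been called higher in SMARCB1 DMSO than in GFP DMSO, among them ZNF699, ZNF121 and ZNF480. These comparisons share the SMARCB1 DMSO libraries. ZNF480 had 69.5 and 67.9 CPM in those libraries, 49.6 and 56.8 with Dox, and 53.2, 53.3, 55.6 and 51.5 in the GFP line, so that the SMARCB1 DMSO pair alone stood apart. ZNF850 had 24.2 and 25.7 CPM there and 15.1 to 18.7 in the other 6 libraries. Without SMARCB1 DMSO replicate 1, 12 members were called with Dox, without SMARCB1 Dox replicate 1 they were 9 and without SMARCB1 Dox replicate 2 they were 15.

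The members that rose were ZNF114, ZNF580, ZNF787, ZNF431, ZNF628 and ZNF714. ZNF114 went from 12.7 and 13.9 CPM to 17.1 and 19.9 (log2 fold change 0.48, SE 0.11, edgeR adjusted p = 0.0039), which still left it below the 47.9 to 54.0 CPM of the GFP line. Without SMARCB1 Dox replicate 2 its edgeR adjusted p was 0.0585. ZNF714, the highest of cluster 6, went from 117 and 112 CPM to 140 and 138 (log2 fold change 0.27, SE 0.08, edgeR adjusted p = 0.0228). Its edgeR adjusted p was 0.105 without SMARCB1 Dox replicate 1, 0.0584 without SMARCB1 Dox replicate 2 and 0.107 without SMARCB1 DMSO replicate 2. ZNF580, ZNF787, ZNF431 and ZNF628 rose by 0.37 to 0.38, and each lost its call without SMARCB1 Dox replicate 1 at edgeR adjusted p values of 0.13 to 0.327. ZNF580, ZNF787 and ZNF628 lie in cluster 19.

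The clusters differed in their medians. In cluster 10, 0 of 21 tested members were above 0, 4 were called lower and the median was -0.32. In cluster 3 (positions 8509678 to 9793180), 1 of 11 was above 0, 4 were lower and the median was -0.30. Cluster 6 had 13 of 24 above 0, 2 called higher and a median of 0.02, and cluster 19 had 8 of 15 above 0, with 3 higher and 3 lower. Differences between clusters were not tested.

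**Figure D4:**
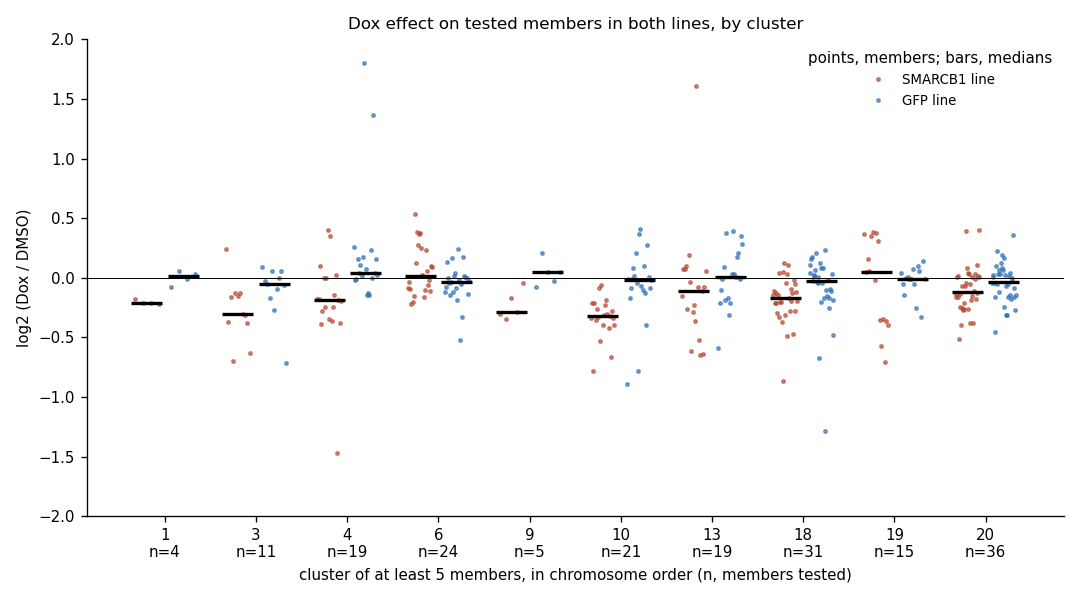
Log2 fold change of Dox over DMSO for tested members of the 10 clusters with at least 5 members, in the SMARCB1 line (red) and in the GFP line (blue), with medians as black bars and the number tested under each cluster. Every point of the SMARCB1 line in cluster 10 lies below 0, with a median of -0.32, while the medians of the GFP line lie near 0 in each cluster.

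Exon GC content moved with the Dox effect among other genes, and less evenly among members. It was 43.2% at the median over tested members and 47.7% over all genes. The 6 members that rose had a median of 55.2%, but they were split. ZNF431 (37.5%), ZNF714 (37.9%) and ZNF114 (48.2%) lay at low or middle GC, and ZNF580 (62.3%), ZNF787 (65.4%) and ZNF628 (70.8%) at high GC. The 19 that fell had a median of 41.0% and a range of 37.9% to 52.9%. Among genes that are no members, the median log2 fold change with Dox climbed from -0.08 at 30 to 40% GC to 0.12 at 55 to 75%. Members lay below other genes of like GC in the middle bins, at -0.22 against -0.07 for 40 to 42% and at -0.21 against -0.04 for 42 to 44%, and beside them at 55 to 75%, at 0.10 against 0.12. With a replicate block 32 members were called, and with the block and a GC correction 25, of which 6 were higher and 19 lower, with a median of -0.10. These 6 were not the 6 named above, since ZNF580 (log2 fold change 0.25, edgeR adjusted p = 0.110), ZNF787 (0.21, edgeR adjusted p = 0.102) and ZNF628 (0.16, edgeR adjusted p = 0.309) lost their calls under that correction.

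Without Dox, the line difference did not follow GC in other genes. Between SMARCB1 DMSO and GFP DMSO the median over other genes stayed between -0.03 and 0.05 in all 7 bins of GC. Over members it was 0.34 at 40 to 42%, 0.31 at 42 to 44% and -0.02 at 55 to 75%. Median GC was 42.1% for the 53 members called higher and 44.9% for the 7 called lower. Between SMARCB1 Dox and GFP Dox, the median over other genes did climb with GC, from -0.09 at 30 to 40% to 0.10 at 55 to 75%. Members were at 0.30 and 0.19 in these bins.

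**Figure D5:**
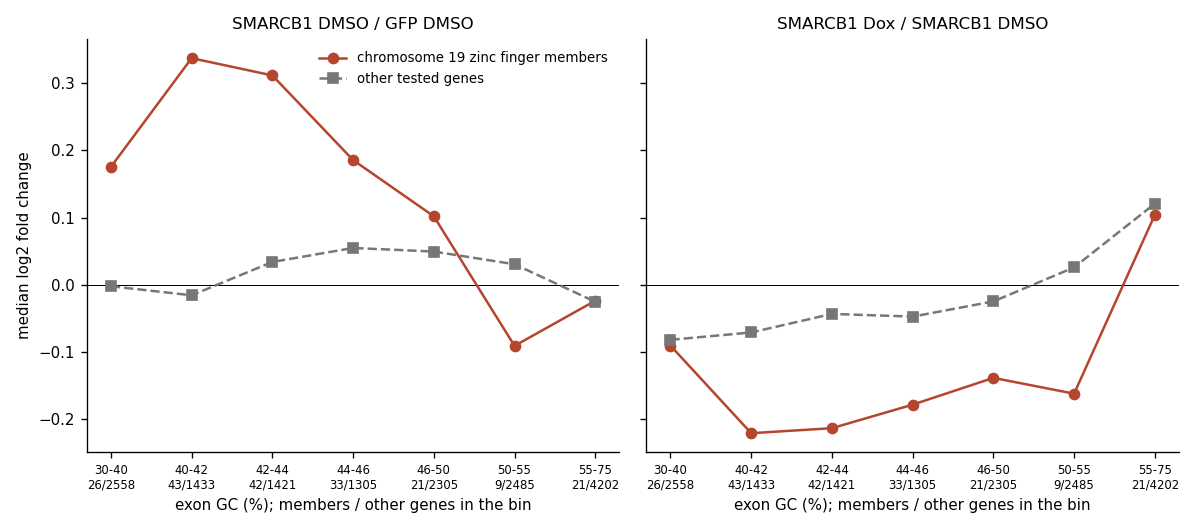
Median log2 fold change by bin of exon GC for members (red circles) and all other tested genes (grey squares), for SMARCB1 DMSO over GFP DMSO on the left and SMARCB1 Dox over SMARCB1 DMSO on the right, with the number of members and of other genes under each bin. Members stand above other genes on the left at 30 to 50% GC, with 0.34 against -0.02 at 40 to 42%, and below them on the right at 40 to 55% GC.

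In the GFP line, which controls for Dox itself, 0 of 195 members were called between GFP Dox and GFP DMSO by edgeR, against 0.0% of all genes. There were 5 members at an unadjusted p under 0.05, and DESeq2 called 0. The median was -0.01. ZNF790 had 2.66 and 1.56 CPM with DMSO against 1.04 and 1.39 with Dox, and ZNF420, known as a KRAB regulator of p53, had 4.12 and 3.93 against 5.91 and 4.78. These had the smallest p-values, and both had an edgeR adjusted p of 1.

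Whether the effect of Dox differed between the lines was tested as an interaction. It was called by edgeR for 0 of 195 members, against 4.71% of all genes (3.07% higher and 1.64% lower). There were 31 members at an unadjusted p under 0.05, DESeq2 called 0, and the smallest adjusted p by edgeR was 0.0526, for ZNF566, with a difference of -0.61 on the log2 scale. The median over members was -0.13. In the main fit and in DESeq2, a Dox effect particular to the SMARCB1 line was thus not shown for a single member. With a replicate block, which the main fit did not use, a few members were called, as given below. Without SMARCB1 DMSO replicate 2, 3 members were called, and without SMARCB1 Dox replicate 2, 1.

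Proteins that work with KRAB zinc fingers were examined as a list of 30 genes, of which 29 were tested and ZFP57 had 0 counts. Between SMARCB1 DMSO and GFP DMSO, 2 were called higher and 8 lower by edgeR, with a median of -0.08, against 16.3% and 15.7% of all genes. DNMT3B, a de novo DNA methyltransferase, had 32.9 and 35.7 CPM in SMARCB1 DMSO against 84.9 and 87.1 in GFP DMSO (log2 fold change -1.33, SE 0.09, edgeR adjusted p = 5.38e-11). TRIM24 was lower by 0.66 on the log2 scale. CBX5, which encodes the HP1 alpha protein, and DNMT3A were each lower by 0.56. MORC2, which works with the HUSH complex, was lower by 0.48, SMARCAD1, a remodeler that works with TRIM28, by 0.40, and CHD4, of the NuRD complex, by 0.32. MPHOSPH8, of the HUSH complex, was higher by 0.33, and SUV39H2 by 0.23. The calls of DNMT3A, MORC2, CHD4, MPHOSPH8 and SUV39H2 ended when 1 of up to 5 libraries was left out, at edgeR adjusted p values of 0.0532 to 0.272.

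TRIM28 had 269 and 291 CPM in SMARCB1 DMSO and 320 and 363 in GFP DMSO. Its log2 fold change was -0.29 (SE 0.08, edgeR adjusted p = 0.0106), and the edgeR adjusted p passed 0.05 without SMARCB1 DMSO replicate 1 (0.0877) and without GFP DMSO replicate 2 (0.206). SETDB1 had 17.1 and 20.4 CPM against 19.2 and 20.1 and was not called (log2 fold change -0.07, SE 0.13). With Dox in the SMARCB1 line, 5 genes of the list were higher and 0 lower, namely DNMT3B by 0.69, DNMT3A by 0.63, UHRF1 and TRIM24 by 0.41 each, and DAXX by 0.36, against 8.33% and 5.69% of all genes. The calls of DNMT3A, TRIM24 and DAXX with Dox ended when 1 of 2 to 7 libraries was left out, at edgeR adjusted p values of 0.0584 to 0.271. The part of these genes in the differences of the members was not tested.

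Features that the choice of members did not use were compared between silent and expressed members. Proteins were taken from the canonical GENCODE coding sequence. Members had a median of 12 fingers, from 1 in ZNF414 and ZNF428 to 36 in ZNF208, and silent and tested members both had a median of 12. A KRAB A box pattern was found in 156 of 240 members, in 16 of 31 silent and in 128 of 195 tested ones. It was found in 40 of the 53 members called higher in SMARCB1 DMSO and in 12 of the 19 called lower with Dox. The median number of CG dinucleotides per promoter was 16 over the 22 silent members with an entry and 21 over the 176 tested ones.

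Promoters were also searched on both strands for short motifs, where a match is a description and not a site. The core of ETS factor motifs, CCGGAAG, was found in 44.3% of 210 member promoters, against 10.7% of all promoters and 14.0% of those of 15135 other protein-coding genes. The CCAAT box, CCAAT, was found in 52.9% against 35.7% of all and 36.4% of other protein-coding promoters. The GC box of SP1, GGGCGG, was found in 69.5% against 44.6% and 59.1%. Longer motifs of NRF1, ZNF143, BANP and YY1 were also searched and were rare. They were found in 2.38%, 0.952%, 1.43% and 0.952% of member promoters. Other protein-coding promoters held them at 1.71%, 0.383%, 1.80% and 1.41%. Each motif was counted on its own, whether or not its matches overlapped those of another. Of the promoters shown above, those of ZNF320, ZNF493 and the silent ZNF208 held the ETS core, and those of ZNF69 and the highly expressed ZNF714 did not. It was present in 12 of 22 silent and 81 of 188 other members.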

How the data were processed

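Total RNA of 8 libraries was measured, 2 for each of 4 groups. The authors aligned reads to hg38 with STAR and counted them per gene with HTSeq in intersection-strict mode on GENCODE 42, and deposited raw counts per gene. Versions and the strand option are not given in the sources used here. The labels and the methods name different library kits, so reads of overlapping or antisense genes may be assigned wrongly. Rows that name no gene held 27.0% to 29.3% of reads and were left out of library sizes.

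The members, gene lists and tests were chosen with earlier results of these data known. Counts were fitted in R 4.3.3 with edgeR 4.0.16 (filterByExpr, TMM factors, quasi-likelihood test, 1 mean per group over all 8 libraries), with Benjamini-Hochberg adjustment over the 15931 genes that passed the filter and a call at an adjusted p under 0.05. The filter corresponded to about 0.292 CPM, and 195 members passed. The fit was tested on simulated counts. CPM used TMM factors, and RPKM divided CPM by the union of exons in kb. Replicates of each group differed beyond counting noise (chi-square per gene 7.62 to 20.3), so none was a copy. Same-numbered libraries were not paired in the main fit, since their differences correlated weakly, at 0.031 to 0.148 across genes.

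Positions, exon GC, shared exon bases and 50-base windows found once in the genome came from GENCODE 44 on GRCh38, which matched 62625 of 69215 gene IDs. Fingers and the KRAB pattern were to be taken from RefSeq proteins and were taken from canonical GENCODE coding sequences instead. Promoters came from RefSeq (GRCh38.p14) for 210 members. Intervals are exact 95% and, like the floor of 3 counts, cover counting error only. Named members were the 8 highest in RPKM, up to 10 called per direction with the largest change (a mean of at least 1 CPM in the higher group and groups that did not overlap), the ends of runs, members silent in 1 line and those with the smallest p where none was called. Other members were named for a known function or a neighbouring position, or after their values were seen. Alternatives were DESeq2 1.42.0, other scaling, no filter, only the groups compared, a replicate block with and without a GC correction, and each library left out.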

Additional observations from a re-analysis of the deposited data

Results flagged for a closer look

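The effect of Dox on DNMT3B, one of the partner genes of KRAB zinc fingers, differed between the lines. DNMT3B went from 32.9 and 35.7 CPM to 52.4 and 58.6 with Dox in the SMARCB1 line and from 84.9 and 87.1 to 87.3 and 95.1 in the GFP line. The difference of the effects was 0.61 on the log2 scale (SE 0.12, edgeR adjusted p = 0.0043).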

How the results depend on the processing

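Between SMARCB1 DMSO and GFP DMSO, leaving out 1 library gave 37 to 61 called members, 32 to 54 higher and 4 to 7 lower, and members with few shared or repeated bases alone, a choice made after seeing the data, gave 37, 33 higher and 4 lower. With Dox in the SMARCB1 line the range was 9 to 21, 1 to 5 higher and 8 to 16 lower. Library totals gave 10 lower, and fitting only the groups compared gave 3 higher. Between SMARCB1 Dox and GFP Dox it was 37 to 63, 27 to 40 higher and 10 to 23 lower. For Dox in the GFP line it stayed at 0. For the difference of the Dox effects it was 0 to 3, 0 to 1 higher and 0 to 2 lower, and no expression filter gave 1, which was lower.

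The main fit did not pair the libraries by replicate number. Whether same-numbered libraries share an effect was judged only by the correlations of their differences, which were weak but all positive, at 0.031 to 0.148. It was not tested further. Over all 15931 genes, a replicate block raised the calls of the difference of the Dox effects from 750 to 1282. With a replicate block the difference of the Dox effects was called for 8 members, 1 higher and 7 lower, and with a replicate block and a GC correction for 5, 3 higher and 2 lower. The block gave 63 called members between the DMSO groups and 32 with Dox in the SMARCB1 line.

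Of the 31 silent members, 16 had 0 counts in all libraries and 14 had few shared or repeated bases. Runs of at least 4 members numbered 3. Among named genes, partners included, 21 of 43 calls between the DMSO groups held in every alternative run. So did 5 of 23 with Dox and 18 of 28 between the Dox groups, and no call reversed. Those that held between the lines include ZNF69, ZNF320 and ZNF493, whose calls could hardly be lost. The causes of the changes between alternatives were not tested. With 2 libraries per group, low counts limit what could be called for members near the filter.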
